A study of Mus musculus with 3 samples.

Results

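Glutamate and GABA receptor genes are the set described here: 33 mouse genes encoding receptor subunits for the main excitatory and inhibitory transmitters of the retina. They comprise 16 ionotropic glutamate receptor genes, 7 metabotropic glutamate receptor genes and 10 GABA receptor genes, out of 21631 protein-coding genes on chromosomes 1 to 19 and X. A peak was counted for a gene when its midpoint lay inside the gene body or within 50 kb of either end, a span called the gene's window. This rule took 18 of the 3668 Atoh7 peaks in the list, at 11 of the 33 genes. CUT&RUN, the assay used, releases the DNA under a protein by tethering a nuclease to its antibody. The tissue was whole C57Bl6/J mouse retina at embryonic day 14. The labels name 2 libraries made with an antibody to Atoh7 and 1 made with IgG, and no genotype or treatment other than the strain. The list gives each peak's position and width on mm10 and nothing per library, so no value has a replicate error, the depth of each library is unknown, and neither retinal cell types nor the signal in IgG could be checked.

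Atoh7 belongs to the bHLH (basic helix-loop-helix) family of transcription factors and is made by neurogenic retinal progenitors, and bHLH dimers bind a short DNA motif called the E-box. Ionotropic glutamate receptors are ion channels opened by glutamate, metabotropic glutamate receptors act through G proteins, and GABA is sensed by GABA-A receptors, which are chloride channels, and by GABA-B receptors, which act through G proteins. In the mature retina photoreceptors and bipolar cells release glutamate, amacrine and horizontal cells release GABA, and ganglion cells carry receptors for both. At the stage sampled, ganglion cells are being born and most retinal synapses have yet to form.

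The sequences below, from RefSeq (GRCm38.p6, 5′ to 3′ on the strand of the gene), show where peaks met annotated promoters and where they did not. E-boxes (CANNTG, which reads the same on both strands) are in capitals. Cyth2 is shown because its promoter held the only promoter overlap in the windows of the 33 genes, next to Grin2d. Its sequence is the shared part of the promoter and the peak, chr7:45814315-45814566 on the minus strand. Homer3, a gene for a scaffold protein that binds group I metabotropic glutamate receptors, is shown because a peak overlapped its own promoter, here chr8:70282749-70282906 on the plus strand. Grik4 is shown because it held the most peaks of the 33 genes while its promoter window, chr9:42944322-42944621 on the minus strand, held none.
Cyth2: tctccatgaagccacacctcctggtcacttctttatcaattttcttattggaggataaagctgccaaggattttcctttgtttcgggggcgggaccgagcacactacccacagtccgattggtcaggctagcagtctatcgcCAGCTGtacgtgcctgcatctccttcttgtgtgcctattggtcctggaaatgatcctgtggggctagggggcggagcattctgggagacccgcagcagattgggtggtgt
Homer3: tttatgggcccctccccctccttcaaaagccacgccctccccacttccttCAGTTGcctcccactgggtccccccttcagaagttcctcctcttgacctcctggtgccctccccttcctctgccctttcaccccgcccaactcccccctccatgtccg
Grik4: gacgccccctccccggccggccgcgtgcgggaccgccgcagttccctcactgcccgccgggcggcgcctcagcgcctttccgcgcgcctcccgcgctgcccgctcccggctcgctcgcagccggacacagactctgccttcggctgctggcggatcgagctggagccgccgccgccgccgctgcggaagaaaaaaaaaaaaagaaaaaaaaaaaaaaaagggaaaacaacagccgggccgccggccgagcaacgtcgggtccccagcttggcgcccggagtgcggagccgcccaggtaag

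The Cyth2 stretch held 1 E-box, of the form CAGCTG, the Homer3 stretch held 1, CAGTTG, and the Grik4 window held none. A promoter window ran from 250 bases before the start of a gene to 50 after it, and the table holds 32851 of them. Of these, 72.3% held a CANNTG, 16.3% a CAGCTG and 17.2% a CAGATG or its reverse complement CATCTG. Among the 898 windows that overlapped any Atoh7 peak, 28% held a CAGCTG, 67.1% a CANNTG and 15.7% a CAGATG or CATCTG. The table has 31 windows for 24 of the receptor genes, of which 13 held a CANNTG, 1 a CAGATG and 0 a CAGCTG. The other 9 receptor genes have no entry in it: Gria1, Gria3, Grik1, Grin2a, Grin2b, Grin3a, Grid1, Grm5 and Grm4.

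No receptor gene had a peak at its own ends. Of all promoter windows 2.73% were overlapped by a peak, and of the 31 receptor windows 0 were. Of all protein-coding genes 4.3% had a peak midpoint within 1 kb of either end, and of the 33 receptor genes 0 did. Read against those low backgrounds, a count of 0 in sets of this size does not set the receptor genes apart. Inside the gene body, 8 of the 33 held a peak, against 7.17% of all protein-coding genes, whose median length was 17.3 kb against 224 kb for the receptor genes.

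With the flanks included, 11 of 33 receptor genes had a peak. That share of 33.3% has a 95% Wilson interval of 19.8 to 50.4%, which includes the 24.4% of all protein-coding genes. Long genes have longer windows and held peaks more often. A peak lay in the window of 22.1% of genes under 50 kb, 29.4% of genes of 50 to 200 kb, 41.4% of genes of 200 to 500 kb and 50.2% of genes of 500 kb or more. The receptor genes of those lengths held one in 3 of 6, 1 of 8, 4 of 13 and 3 of 6. With the mean count of genes of the same length class for each member, 20.4 peaks would be reached, and 18 were found, a ratio of 0.883. In density, the receptor windows held 1.37 peaks per Mb (95% exact Poisson interval 0.814 to 2.17, over 13.1 Mb), where the windows of all protein-coding genes held 1.81. The ratio to all other protein-coding windows was 0.757, and its interval of 0.448 to 1.2 includes equal density. The 33 genes were chosen with earlier results of these data known, so these shares and densities depend on that choice. The 14 receptor genes of the same families outside the set held 1 peak, or 0.264 per Mb. A peak thus lay at 7.14% of them, and genes of their lengths would give 6.06 peaks. Within the set the counts ran from 0 at 22 genes to 4 at Grik4.

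**Figure D1:**
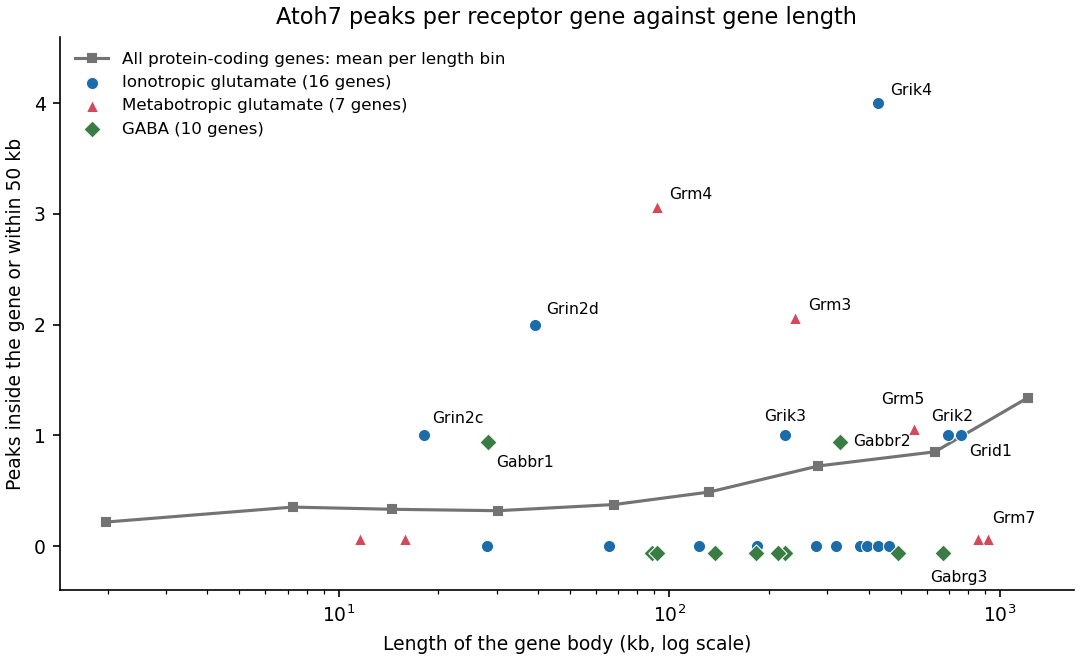
Each receptor gene is a point, with its length in kb on a log axis and the number of peak midpoints inside it or within 50 kb on the vertical axis (metabotropic and GABA points are shifted slightly up and down to separate overlaps). The grey line joins the mean count of all protein-coding genes in length bins; Grik4 with 4 peaks and Grm4 with 3 lie far above it, while Grm7, Grm8 and Gabrg3, among the longest, lie at 0.

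By class, the metabotropic genes held 6 peaks in 3.39 Mb of window, or 1.77 per Mb (0.649 to 3.85). The ionotropic genes held 10 in 6.43 Mb, or 1.56 per Mb (0.746 to 2.86), and the GABA genes 2 in 3.28 Mb, or 0.61 per Mb (0.0739 to 2.2). Genes of the same length class would give 4.67, 9.89 and 5.83 peaks in that order, so the GABA genes held 0.343 of that number and the metabotropic genes 1.28. The metabotropic count includes 2 Grm3 peaks separated by only 165 bp, which were counted separately. The ratio of densities was 0.88 for ionotropic to metabotropic (exact conditional 95% interval 0.29 to 2.94), 2.55 for ionotropic to GABA (0.544 to 23.9) and 2.9 for metabotropic to GABA (0.518 to 29.4). All of the 3 intervals include equal density, so no difference between the classes was resolved with these few peaks. The intervals cover the counting of listed peaks only, and since peaks can gather at a locus they are too narrow. Single genes carried much of each class: without Grik4 the ionotropic genes held 6 peaks (1.02 per Mb), and without Grm4 the metabotropic genes held 3 (0.937 per Mb).

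**Figure D2:**
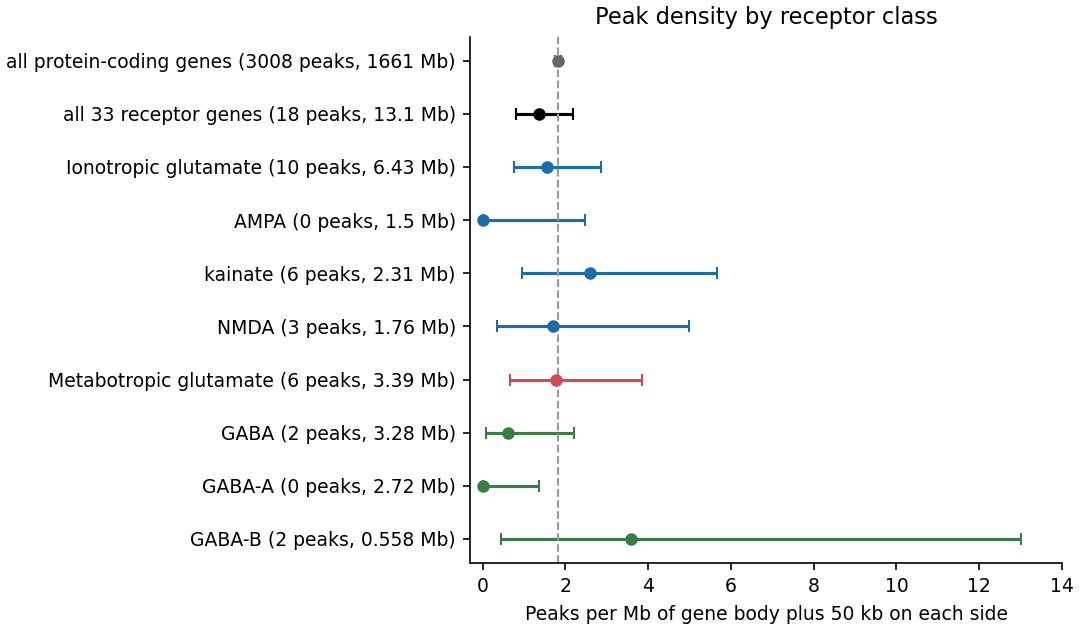
Peaks per Mb of window (horizontal axis) for all protein-coding genes, all receptor genes, the classes and the main subclasses, with bars for exact 95% Poisson intervals. The dashed line marks the 1.81 per Mb of all protein-coding windows, which lies inside every class interval and above that of the GABA-A genes, which ends at 1.36. That subclass was compared after its counts were seen, and its genes lie largely in clusters, so its interval is too narrow. Its member Gabra3 is on the X chromosome, where protein-coding windows held 0.323 per Mb. The line is not adjusted for gene length.

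Among the ionotropic genes, the kainate receptor genes held most of the peaks. Kainate receptors are tetrameric channels that adjust transmission on both sides of the synapse. Their 5 genes held 6 peaks, all inside the gene bodies (2.6 per Mb of window, 0.954 to 5.66), against 3.56 for genes of their length. Grik4, which encodes a high-affinity kainate subunit (chromosome 9, 42518182 to 42945000, 427 kb), held 4 of the 6. Of 763 protein-coding genes of 200 to 500 kb, 21 (2.75%) held as many or more. Grik4 was singled out by its count, the highest in the set, so this share does not measure how unusual it is.

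The 4 Grik4 peaks lay at 19.5, 25.4, 72.6 and 88.9% of the gene's length from its low-coordinate end, which is the 3′ end. The widest, 720 bp at chr9:42827739-42828458, was centred 117 kb downstream of the 5′ end of the gene. The next in width, 542 bp at chr9:42897140-42897681, was centred 47.6 kb downstream of that end. The other peaks, 321 bp at chr9:42601406-42601726 and 370 bp at chr9:42626289-42626658, were centred 343 and 319 kb downstream. None was at the promoter printed above, and the annotation used gives neither exons nor introns. The nearest listed peaks beyond the gene were 628 and 824 kb away on either side.

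Grik2 and Grik3, which encode low-affinity kainate subunits able to form channels by themselves, held 1 peak each. The Grik2 peak (199 bp, chr10:49466132-49466330) was centred 324 kb downstream of the 5′ end, near the middle of a 696 kb gene. The Grik3 peak (271 bp, chr4:125545586-125545856) was centred 55.5 kb downstream of the 5′ end of that 224 kb gene. It also lay inside the long noncoding RNA gene Gm32807 and 1.08 kb from an end of it, the closest that any peak inside a receptor gene came to the end of an annotated gene. Grik1, the other large low-affinity subunit gene (395 kb), held none, its nearest peak being 1732 kb away, nor did Grik5 (65.8 kb), with one at 125 kb.

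The delta receptor gene Grid1 encodes a relative of these channels that acts in synapse organisation. Across its 763 kb it held 1 peak of 238 bp at chr14:34880851-34881088, 61.0 kb from the low-coordinate end and nearest, among annotated gene ends, to the miRNA gene Mir346. Genes of 500 kb or more held 0.978 peaks on average, so 1 peak is close to the usual count for that length.

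The NMDA receptor genes encode calcium-permeable channels that need both glutamate and depolarisation to pass current. The 6 genes had 3 peaks in their windows, where genes of their lengths would give 2.76, and other genes lay nearer to all of the 3. They had 0 inside a gene, beside 7.17% of all protein-coding genes with a peak inside. The 2 genes with a peak, Grin2c and Grin2d, are under 50 kb, where 22.1% of all protein-coding genes had one. Grin2c had a 942 bp peak at chr11:115233426-115234367, the widest of the 18, centred 15.3 kb from Grin2c and inside its neighbour Tmem104. Grin2d had a 351 bp peak at chr7:45814315-45814665, centred 168 bp from Cyth2 and 17.4 kb from Grin2d, and overlapping the Cyth2 promoter printed above. Its other peak, 632 bp at chr7:45916568-45917199, was centred inside Tmem143, 0.529 kb from an end of that gene and 45.7 kb from Grin2d.

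Counting peaks only for the nearest protein-coding gene therefore removes all NMDA peaks and brings the ionotropic density to 1.09 per Mb. Grin1, the obligatory NMDA subunit gene, lay just outside the rule, with its nearest peak at 53.1 kb, while the Grin2d peak at 45.7 kb lay just inside it. Grin2a (428 kb) and Grin2b (460 kb), the subunit genes that dominate in the forebrain, held no peak, with the nearest 276 and 297 kb away. Grin3a (184 kb), a subunit gene that lowers calcium permeability, had its nearest at 1374 kb.

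None of the 4 AMPA receptor genes held a peak. AMPA receptors carry fast excitatory transmission, and Gria2 encodes the subunit that limits their calcium permeability. The windows of Gria1, Gria2, Gria3 and Gria4 covered 1.5 Mb together. The exact 95% Poisson interval for a count of 0 ends at 2.46 per Mb, above the 1.81 of all protein-coding windows. Genes of their lengths would give 2.59 peaks. Yet most single genes of such lengths held none: 70.6% at 50 to 200 kb (Gria2) and 58.6% at 200 to 500 kb (Gria1, Gria3 and Gria4). Gria3 is also on the X chromosome, which held few peaks. The nearest peaks were 219 kb from Gria1, 359 kb from Gria2, 2766 kb from Gria3 and 5059 kb from Gria4.

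**Figure D3:**
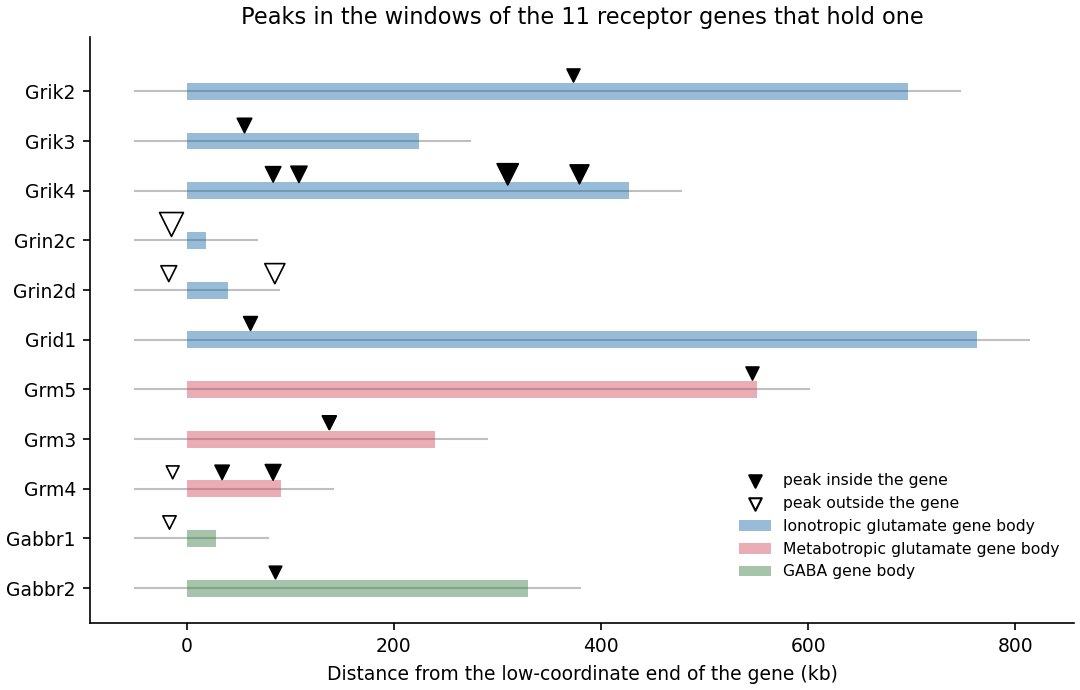
Gene bodies (bars) and 50 kb flanks (grey lines) of the 11 receptor genes with a peak, on a scale of kb from the low-coordinate end. Triangles are peak midpoints, larger for wider peaks and open where the peak lies outside the receptor gene, as do 5 of the 18; the 2 peaks in Grm3 overlap at this scale.

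Of the metabotropic genes, Grm4, Grm3 and Grm5 held peaks. Grm4 encodes a presynaptic group III receptor that lowers transmitter release. At 91.4 kb (chromosome 17, 27422387 to 27513826) it held 3 peaks, the most of its class. That count was reached by 2.35% of the 3951 protein-coding genes of 50 to 200 kb, again a share for a gene singled out by its count. The peaks inside Grm4 were 263 bp at chr17:27456367-27456629 and 334 bp at chr17:27505519-27505852, the latter 8.14 kb from the high-coordinate end. The other, 191 bp at chr17:27408659-27408849, was 13.6 kb outside, with Grm4 as its nearest protein-coding gene.

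Grm3 encodes a group II receptor found on neurons and glia. Its 2 peaks, 230 bp at chr5:9622591-9622820 and 217 bp at chr5:9622986-9623202, were separated by only 165 bp. They were centred 103 and 102 kb downstream of the 5′ end of the 240 kb gene. Beyond them no listed peak lay within 4608 kb on one side of the gene or 4802 kb on the other, so the pair stood alone in a long stretch of chromosome 5.

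Grm5, which encodes a postsynaptic group I receptor coupled to calcium release, held 1 peak of 197 bp at chr7:88130031-88130227, 4.93 kb inside the high-coordinate end of the 551 kb gene. The other metabotropic genes held none. Grm7 (922 kb) and Grm8 (860 kb), the longest of the 33 genes and presynaptic group III receptors like Grm4, had their nearest peaks at 1272 and 498 kb. Of genes of 500 kb or more, 49.8% held no peak, so the absence at each is common for the length. Grm6, the receptor through which ON bipolar cells sense photoreceptor glutamate, is 15.8 kb long and its nearest peak was 719 kb away. For Grm2, a group II receptor gene of 11.6 kb, it was 167 kb away.

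Both GABA-B genes had a peak in their windows and none of the 8 GABA-A genes did, beside 24.4% of all protein-coding genes. The share was 22.1% under 50 kb (the class of Gabbr1) and 29.4% at 50 to 200 kb (Gabra2, Gabra4, Gabra5 and Gabrg1). It was 41.4% at 200 to 500 kb (Gabra3, Gabrb1, Gabrb2 and Gabbr2) and 50.2% at 500 kb or more (Gabrg3). With so few genes no difference between the receptor types is claimed, and the Gabbr1 peak lay nearer to another gene. GABA-B receptors are obligate pairs of the products of Gabbr1 and Gabbr2. Gabbr2 (329 kb) held 1 peak of 178 bp at chr4:46747105-46747282, centred 245 kb downstream of its 5′ end. The Gabbr1 peak, 215 bp at chr17:37028819-37029033, was 17.0 kb upstream of that gene and 5.53 kb from Mog, a gene of myelinating cells that lay nearer. The narrowest peak of the whole list was 177 bp wide, so the Gabbr2 peak was among the narrowest.

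GABA-A receptors are pentamers, mostly of alpha, beta and gamma subunits. The windows of Gabra2, Gabra3, Gabra4, Gabra5, Gabrb1, Gabrb2, Gabrg1 and Gabrg3 covered 2.72 Mb with 0 peaks, where genes of their lengths would give 4.81. The exact 95% Poisson interval of that density ends at 1.36 per Mb. The 8 genes are not independent: Gabrg1, Gabra2, Gabra4 and Gabrb1 form a cluster on chromosome 5, and Gabrg3 and Gabra5 another on chromosome 7. The subtypes were compared after these counts had been seen, and no test was made of the difference.

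The surroundings of the GABA-A genes were also free of listed peaks. The chromosome 5 cluster, 1.40 Mb from end to end, lay in a stretch of 5.14 Mb between neighbouring peaks, and 50 of the 3642 intervals between neighbouring peaks in the list were that long or longer. The chromosome 7 cluster lay in a stretch of 8.77 Mb, with 9 intervals as long, and Gabrb2 on chromosome 11 in one of 3.11 Mb. The median interval was 0.258 Mb. A cluster without a peak can only lie in an interval longer than itself, and any locus falls more often in a long interval. The ranks of these stretches therefore do not measure how rare such surroundings are. These stretches held other genes too: the one on chromosome 5 held 23 protein-coding genes and the one on chromosome 7 held 29, receptor genes included. All of the 8 GABA-A genes were more than 500 kb from a peak (616 to 2398 kb), as were 29.7% of all protein-coding genes. Stretches of such length also surrounded glutamate receptor genes, at 5.31 Mb for Grm7 and 6.92 Mb for Grin3a.

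**Figure D4:**
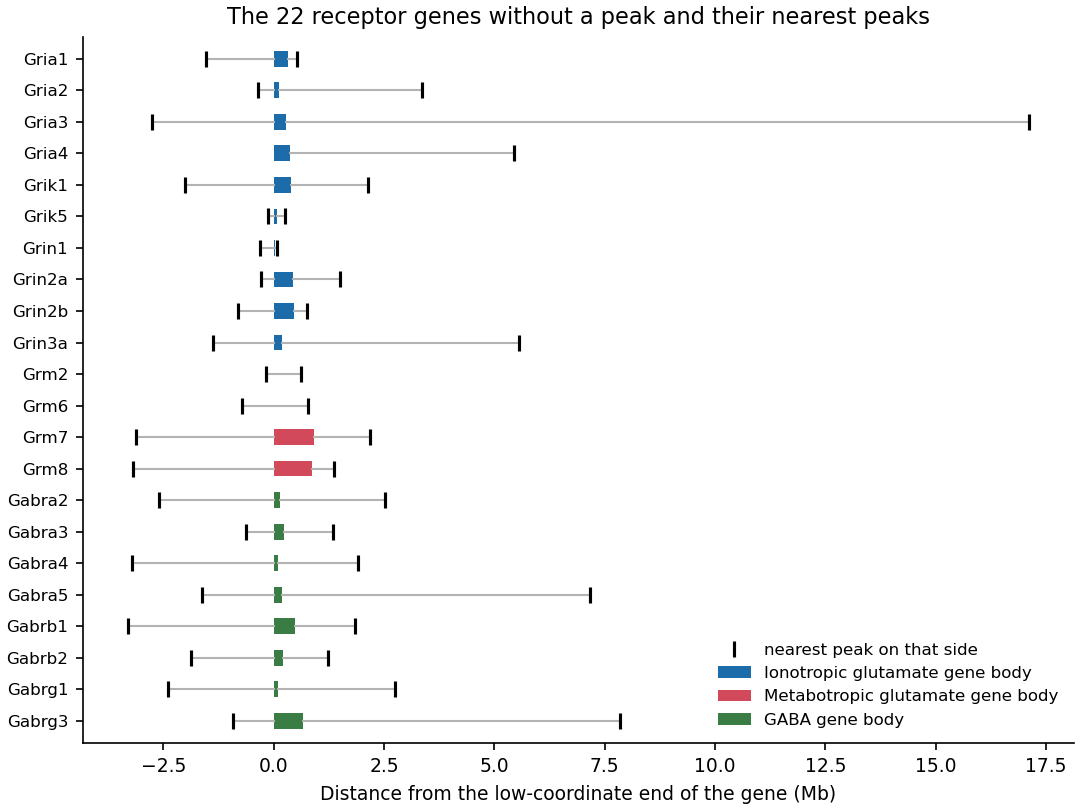
The 22 receptor genes without a peak in their windows, drawn as bars on a scale of Mb from the low-coordinate end, with ticks at the nearest listed peak on each side. Gria4 has no peak on its low-coordinate side, Gria3 on the X chromosome has the farthest one (16825 kb) and Grin1 the closest (53.1 kb).

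The X chromosome held few peaks at all. It had 37 peaks, or 0.217 per Mb, the lowest of the 20 chromosomes, and its protein-coding windows held 0.323 per Mb against 1.90 on autosomes. Gria3 and Gabra3 are X-linked, so their lack of a peak cannot be told apart from that of the chromosome. Without them the receptor windows held 1.45 peaks per Mb. The counts of AMPA and GABA-A genes were 0 with these genes included, so leaving genes out could not change them.

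Peaks at the receptor genes were narrow. Their median width was 267 bp, against 381 bp over the whole list, and 9 of the 18 were no wider than its lower quartile of 269 bp. Peaks inside protein-coding genes of 200 kb or more had a median of 377 bp. By class the medians were 360 bp for ionotropic (199 to 942 bp), 224 bp for metabotropic (191 to 334 bp) and 196 bp for the 2 GABA peaks. All metabotropic and GABA peaks were narrower than the list's median, and the 4 wider than it were those of Grik4 (720 and 542 bp), Grin2c and Grin2d (632 bp). With only the wider 50% of the list, 3 of the 33 genes had a peak (9.09%, Wilson interval 3.14 to 23.6%), beside 13.2% of all protein-coding genes. At the shares of their length classes, 7.1 of the 33 would have one. Width is not occupancy, and the list gives no height.

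**Figure D5:**
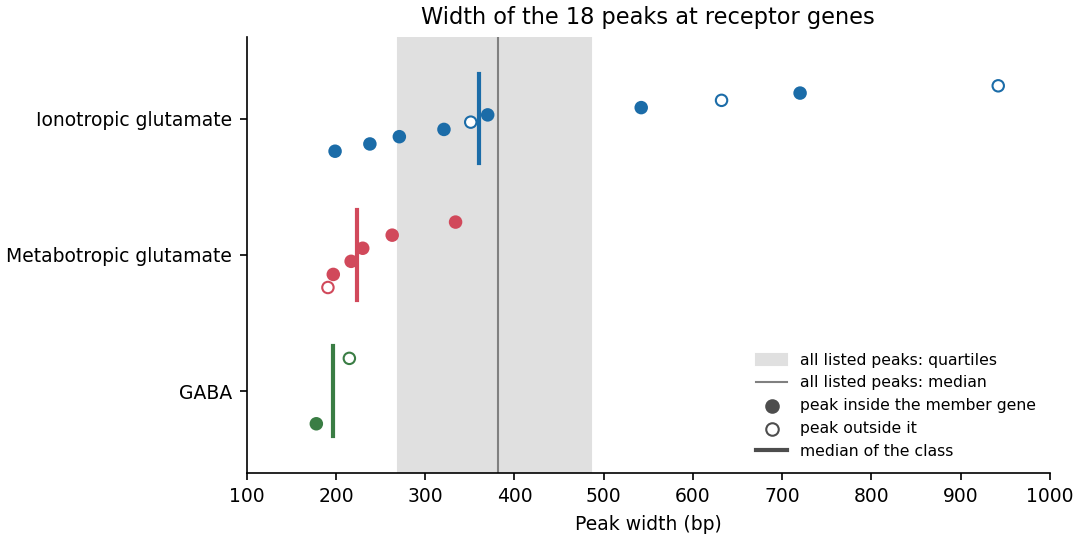
Width in bp of the 18 peaks by receptor class, filled where the peak lies inside the receptor gene and open where it lies outside. Coloured bars are class medians; the grey band (269 to 486 bp) and line (381 bp) are the quartiles and median of the whole list, and every metabotropic and GABA peak lies to the left of that line.

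Other genes of the same synapses were counted in the same way. A further 14 receptor genes of these families, most of them GABA-A subunit genes, held 1 peak in 3.78 Mb of window (0.264 per Mb, 0.00669 to 1.47). It lay 24.6 kb from Grin3b and inside none of the 14 genes. The share with a peak was 7.14% (Wilson interval 1.27 to 31.5%), which includes the 24.4% of all protein-coding genes. Genes of their lengths would give 6.06 peaks, a ratio of 0.165. Auxiliary subunits and synaptic anchors had peaks at 14 of 33 genes (42.4%, Wilson interval 27.2 to 59.2%), beside 24.4% of all protein-coding genes. Their 19 peaks, 7 of them inside a gene, came to 1.97 per Mb (1.19 to 3.08), and genes of their lengths would give 16.1, a ratio of 1.18. The AMPA receptor auxiliary subunit gene Gsg1l held 3 peaks inside its 204 kb, and the scaffold gene Dlg2 had 2 in its window. The scaffold gene Homer2 had 2, both outside it, and so did Cacng7, another AMPA receptor auxiliary gene. Kctd16, which encodes a GABA-B auxiliary subunit, held 1 inside, and Shisa6, Shisa9 and Cnih3, auxiliary subunit genes of AMPA receptors, had 1 each.

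Homer3 was singled out after its value was seen. Its peak (183 bp) was centred 65 bp from the low-coordinate end of the gene and overlapped the promoter printed above. A Cacng7 peak was centred 167 bp from the end of that gene. These were 2 of 33 partner genes, a count near the 4.3% of all protein-coding genes given above, and no difference from the receptor genes was tested.

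Genes for transmitter synthesis and transport held peaks at 6 of 14 (42.9%, Wilson interval 21.4 to 67.4%, which includes the 24.4% of all protein-coding genes), with 10 peaks in 2.23 Mb (4.48 per Mb, 2.15 to 8.25). The vesicular GABA transporter gene Slc32a1 had 3 and the glial glutamate transporter gene Slc1a2 and the vesicular glutamate transporter gene Slc17a7 had 2 each. The GABA transporter gene Slc6a11 and Abat, which encodes a GABA-degrading enzyme, had 1 each. The receptor windows held 0.306 of the density of the transport gene windows (0.134 to 0.743). Of the 10 transport gene peaks, 8 lay outside the genes. Inside gene bodies the transport genes held 2.23 per Mb (0.27 to 8.05) and the receptor genes 1.3 (0.694 to 2.23), and these intervals overlap. A comparison set chosen after the data were seen, the 10 voltage-gated calcium channel genes named Cacna1, had a peak at 7 genes (70%, Wilson interval 39.7 to 89.2%) and 3.28 per Mb (1.64 to 5.87), and the receptors held 0.419 of it (0.187 to 0.981). The 93 potassium channel genes named Kcn, also chosen then, had a peak at 18 (19.4%, 12.6 to 28.5%) and held 1.39 per Mb (0.914 to 2.02), for a ratio of 0.99 (0.514 to 1.87). The intervals of the ratios to transport genes and to calcium channel genes lay below 1, the latter ending at 0.981. Those to potassium channel genes and to auxiliary subunits (0.698, 0.345 to 1.4) did not. All of these intervals cover counting only and are too narrow where peaks gather at a locus, so no difference between the sets is claimed. Peaks per Mb were lower for longer genes in general, from 2.59 under 50 kb to 1.03 at 500 kb or more with windows summed gene by gene. The transport genes had a median length of 60.4 kb and the calcium channel genes 135 kb, and genes of their lengths would give 5 and 5.53 peaks where 10 and 11 were found. For the potassium channel genes, genes of their lengths would give 38.8 where 28 were counted gene by gene, a ratio of 0.722.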

How the data were processed

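CUT&RUN libraries of mouse retina, 2 with an Atoh7 antibody and 1 with IgG, were grouped by sample title, and the labels do not say whether animals were separate. Per the submitters' processing notes, the authors used mm10 with MACS2 2.2.7.1, bedtools, Picard 2.0.1, SAMtools and Bowtie2 2.3.5, with no order or settings stated. The deposited table lists 3668 peaks with position (from 1) and width in bp, per the file headers. All peak names begin with Atoh7_R1. How the other Atoh7 library and IgG entered the list is not stated in those sources, and no library could be analysed on its own.

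Gene bodies came from RefSeq (GRCm38.p6, the assembly behind mm10), where all 33 symbols matched. The 6 peaks outside chromosomes 1 to 19 and X were left out. Class windows were merged and each peak counted once. Densities carry exact Poisson intervals, shares Wilson intervals and ratios exact conditional intervals, all covering counting error only. No p-value was computed. Alternatives varied the distance, the overlap, the claim of a peak by the nearest gene, peak width and the genes kept. Every receptor gene is named, and of other lists up to 8 genes with the most peaks, ties by length, except 1 gene of the synthesis and transport list that is counted but not reported here. The Cacna1 and Kcn sets, promoter windows, the 500 kb distance and the autosome-only count were added after the data were seen. Members and lists were chosen with earlier results of these data known. Counting was tested on simulated peaks placed in the low-coordinate flank of a gene and just beyond it. None was placed inside the tested genes or on their high-coordinate side, so counts there were not tested. Software was matplotlib 3.10.9, scipy 1.17.1, pandas 2.3.3, numpy 2.4.6 and Python 3.11.15.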

Additional observations from a re-analysis of the deposited data

How the results depend on the processing

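The alternatives were windows of 0, 10 and 100 kb, any overlap of 1 bp, the nearest protein-coding gene only, the wider 50% of peaks, and leaving out the gene with the most peaks in each class (Grik4, Grm4 and Gabbr1, tied with Gabbr2). Of 53 alternative values for 8 results, 45 stayed within 1.5 times (counts) or within the counting interval (densities and ratios). Direction was checked for ratios only. Any overlap of 1 bp gave the main value for all 8 results. The settings reuse the same few peaks and the counting intervals are wide, so staying within them was an easy condition to meet. The wider 50% of peaks left 3 genes with 4 peaks and densities of 0.622 per Mb for ionotropic, 0 for metabotropic and 0 for GABA genes, so the 3 ratios had no value. Leaving out the top genes left 10 peaks and turned the ratio of ionotropic to metabotropic density to 1.08, and windows of 100 kb turned it to 1.02. The ratios to GABA stayed above 1 in the 6 settings that gave a value. Depth per library is unknown and no setting could address it.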

Other observations

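The running numbers in the peak names rise along the table to 7185, and 51.1% of them are present. Between the first and the last peak of Grik4 2 numbers are absent, and between those of Grm4 1 is. If the numbers follow the genome, absent ones also lie in the stretches without a listed peak: 7 around the chromosome 5 GABA-A cluster, 6 around the one on chromosome 7, 5 around Gabrb2, 4 around Grm7, 6 around Grm8 and 3 in the 19.9 Mb around Gria3. Neither the labels nor the list say what the absent numbers stand for.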
